A study of Mus musculus with 18 samples.

Results

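The 10 genes described here encode the transcription factor Nrf2 (Nfe2l2) and 9 enzymes of the glutathione, thioredoxin, quinone and haem systems that Nrf2 is known to induce: Nqo1, Hmox1, Gclc, Gclm, Txnrd1, Srxn1, Gsta4, Gstm1 and Gstp1. They were chosen by name as a pathway and not by a cut-off on their values, though earlier results of these data were known. All 10 were among the 23337 gene symbols of the count table, and all 10 were among the 15482 genes that had enough reads to be tested.

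RNA was sequenced from whole mammary glands, without their lymph nodes, of mice with the mixed strain background C57BL/6Jx129. The 6 groups of 3 libraries were Cip2a-/- and wild-type (WT) glands in each of 3 conditions: untreated, 2 weeks after the last dose of the carcinogen DMBA (7,12-dimethylbenz[a]anthracene), and at the endpoint. Treated mice of both genotypes received 6 doses of 1 mg DMBA in oil by oral gavage, at 1 dose per week, from an age of 12 to 14 weeks. Endpoint glands were tumour-free glands of mice that were sacrificed because DMBA had induced tumours in any tissue. The labels give neither the age at collection, nor how long after dosing the endpoint came, nor how Cip2a was deleted, nor an oil-only group, so DMBA, the oil gavage and age cannot be told apart. The labels do not say whether the libraries of a group come from separate animals, and the p-values measure the spread between these libraries. Each label also carries a number of unstated meaning, and it is larger in all 2-week libraries than in all others. If it marks a batch, that batch cannot be told apart from the 2-week condition in any comparison with it.

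Nrf2 is held at a low level in unstressed cells because Keap1, a sensor of electrophiles and oxidants, presents it to a ubiquitin ligase. Electrophiles modify Keap1, and Nrf2 then accumulates, pairs with a small Maf protein and binds antioxidant response elements near genes for glutathione synthesis, conjugation and reduction. DMBA is oxidised through the aryl hydrocarbon receptor pathway to reactive epoxides and quinones, which enzymes of this group are known to conjugate or reduce. Much of the control of Nrf2 is on the protein, which was not measured here.

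A short element is shown for the members whose start-site window held one, because this is the feature by which the group is usually defined. The windows run from 250 bases before to 50 bases after an annotated start (RefSeq, GRCm38), and 7 of the 10 members matched the table of windows. Hmox1, Gclc and Gsta4 were not matched. Capitals mark the element, each line reads 5′ to 3′ on the strand of the gene, and an element on the opposite strand reads in reverse complement.
Srxn1 (chr2:152105469-152105497, plus strand): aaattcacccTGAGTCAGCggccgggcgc
Gstp1 (chr19:4037968-4037996, minus strand): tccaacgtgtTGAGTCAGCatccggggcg
Nfe2l2 (chr2:75704885-75704913, minus strand): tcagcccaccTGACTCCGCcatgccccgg
Gclm (chr3:122245413-122245441, plus strand): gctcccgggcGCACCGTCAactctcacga
Txnrd1 (chr10:82859104-82859132, plus strand): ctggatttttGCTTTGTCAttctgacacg

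Both strands were searched for TGACNNNGC and TGAGNNNGC, and for TGANTCAGC, which overlaps them. TGANTCAGC was found at Srxn1 and Gstp1, the first element starting at base -45 and the second at base -74 from the start site, and in 1.19% of all 32851 windows. Of the 7 matched members, 5 held TGACNNNGC or TGAGNNNGC, as did 30.8% of all 27025 genes with a window. Nqo1 and Gstm1 held neither form in this window. A match describes the letters in these bases, and no binding was measured.

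Library depth ranged from 16121743 to 24586404 counts. Cip2a itself, listed as C330027C09Rik, lay between 0 and 0.0598 CPM (counts scaled to library depth) in the 9 Cip2a-/- libraries and between 0.831 and 4.88 CPM in the 9 WT libraries, which follows the labels. The glands were mixed tissue: the adipocyte gene Adipoq lay between 719 and 4165 CPM, and Epcam, which marks epithelium, between 4.37 and 439 CPM. Summed skeletal muscle markers ran from 17.0 to 62700 CPM. They were highest in Cip2a-/- 2 weeks library 1, followed by WT endpoint library 1 (38800 CPM) and WT untreated library 1 (33540 CPM). WT endpoint library 1 stood apart, with summed brown fat markers of 8965 CPM and summed luminal markers of 48.0 CPM, and Cip2a-/- endpoint library 3 had summed erythroid markers of 18390 CPM, although Hba-a1 was at 0 in all 18 libraries. Although the glands are given as free of lymph nodes, lymphocyte markers varied widely. B cell markers summed to between 1.165 and 1809 CPM and T cell markers to between 7.54 and 671 CPM. Both sums were highest in WT endpoint library 1, followed by Cip2a-/- untreated library 3 (655 and 370 CPM). In such tissue, fewer cells of a type and less RNA per cell cannot be told apart.

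Every member was read well above the detection limit. The lowest count of any member in any library was 118 reads, for Nqo1. Per kilobase of exon, the mean level over the 18 libraries was highest for Gstm1 (201 CPM per kb) and then Gstp1 (46.4), 2 glutathione transferases that conjugate glutathione to electrophiles. Hmox1 (31.5), Gsta4 (29.0), Nfe2l2 (22.4), Gclc (21.4) and Srxn1 (16.1) followed, and Txnrd1 (11.9), Nqo1 (7.98) and Gclm (4.52) were lowest. Among neighbours in this order, the ranges over libraries were separate for Gstm1 and Gstp1 alone: the lowest Gstm1 library had 116 CPM per kb and the highest Gstp1 library 77.9. Counts of Gstm1 and Gstp1 are uncertain because how reads shared with relatives such as Gstm2 and Gstp2 were counted is not given. Txnrd1 overlaps Eid3 on the same strand.

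**Figure D1:**
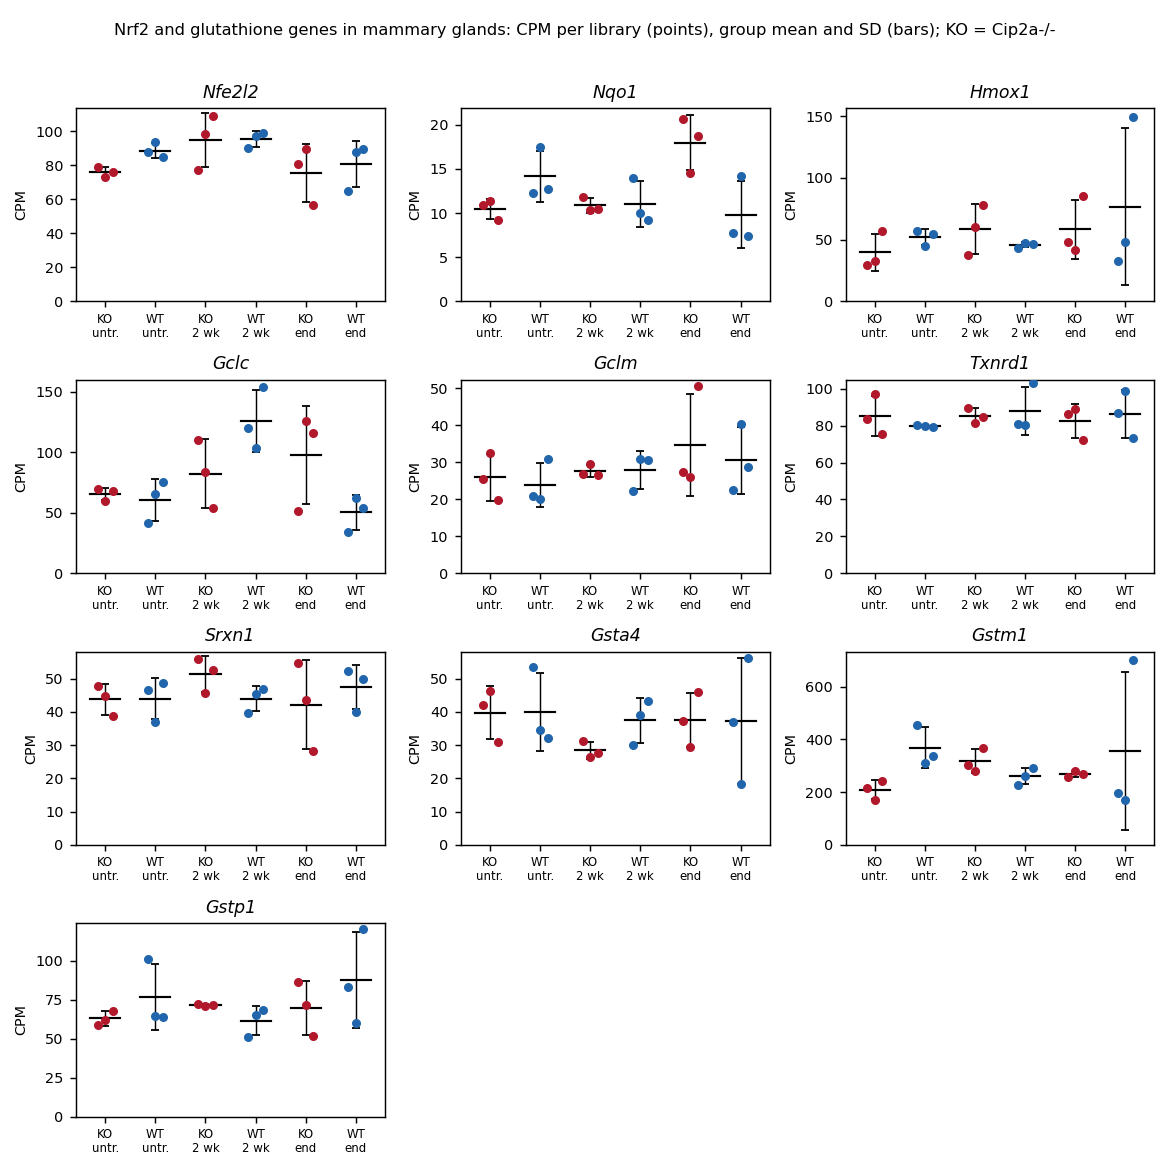
CPM of the 10 members (y axes, each from 0) in every library by group (x axes; KO is Cip2a-/-), with points for libraries and bars for the group mean and SD (n = 3). Txnrd1 is nearly level over the 6 groups, while Hmox1 and Gstm1 each have 1 far higher library, WT endpoint 3.

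No member was called in any comparison. Across 13 comparisons of treatment, genotype and their interaction, 0 of 130 member tests passed an adjusted p under 0.05 in edgeR's quasi-likelihood test with Benjamini-Hochberg adjustment over all genes. At an unadjusted p under 0.05 there were 8 of 130, while the share of all genes was between 0.917% and 30.1% by comparison, and DESeq2 and limma voom also called 0. The lowest adjusted p of any member was 0.135. A p that misses the threshold does not show equal levels, so the intervals are given with the values below.

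Over both genotypes, the comparison of 2 weeks after DMBA with untreated glands called 0 of 10 members and 0.0258% of all genes. The median log2 fold change was 0.09 for the members and 0 for all genes. For 9 of 10 members, all but Gclc, the 95% interval lay within 2-fold either way. No member was separate between the 6 libraries at 2 weeks and the 6 untreated libraries, as 0.995% of all genes were.

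Nfe2l2 (chromosome 2, 75675513 to 75704663), which encodes Nrf2, had 77.3, 98.2 and 109 CPM in Cip2a-/- glands at 2 weeks, against 78.7, 73.2 and 75.7 CPM in untreated Cip2a-/- glands. It had 89.9, 96.9 and 99.2 CPM in WT glands at 2 weeks, against 87.4, 93.7 and 84.6 CPM in untreated WT glands. The groups overlapped in each genotype. Over both genotypes the log2 fold change was 0.21 ± 0.12 (SE; 95% interval -0.05 to 0.48; edgeR adjusted p = 0.766).

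Gclc and Gclm encode the catalytic and modifier subunits of glutamate-cysteine ligase, the rate-limiting enzyme of glutathione synthesis. Gclc (chromosome 9, 77754535 to 77794489) had 110, 84.0 and 53.5 CPM in Cip2a-/- glands at 2 weeks, against 69.4, 59.9 and 67.9 CPM untreated. In WT glands it had 120, 103 and 154 CPM at 2 weeks, against 41.5, 65.2 and 75.3 CPM untreated. Every WT library at 2 weeks was above every untreated WT library, while the Cip2a-/- groups overlapped. The log2 fold change was 0.33 ± 0.34 in Cip2a-/- glands (edgeR adjusted p = 0.920) and 1.05 ± 0.35 in WT glands (95% interval 0.31 to 1.79; unadjusted p = 0.00852, edgeR adjusted p = 0.953). Over both genotypes it was 0.69 ± 0.24 (95% interval 0.17 to 1.21; edgeR adjusted p = 0.718). In Cip2a-/- glands the value was 0.08 without library 1 at 2 weeks and 0.55 without library 3. The interaction of genotype and treatment was -0.72 ± 0.48 on the log2 scale (95% interval -1.76 to 0.31; edgeR adjusted p = 0.999). Gclm (chromosome 3, 122245487 to 122267215) ranged from 26.4 to 29.4 CPM in Cip2a-/- glands at 2 weeks and from 19.8 to 32.5 CPM in untreated Cip2a-/- glands. It ranged from 22.1 to 30.9 CPM in WT glands at 2 weeks and from 20.04 to 30.8 CPM in untreated WT glands, so all of these groups overlapped.

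The summed luminal epithelial markers (9 of 9 detected) moved with Gclc at 2 weeks as a sum. They were 1700, 1394 and 931 CPM in Cip2a-/- glands at 2 weeks, against 730, 1399 and 930 CPM in untreated Cip2a-/- glands, and 1824, 1799 and 3156 CPM in WT glands at 2 weeks, against 584, 998 and 1328 CPM in untreated WT glands. In both genotypes the library with the most luminal marker at 2 weeks also had the most Gclc. Single markers did not all follow the sum: Elf5 had 132, 12.2 and 9.09 CPM in WT glands at 2 weeks, against 24.6, 71.2 and 49.3 CPM untreated, and was lowest in the library with the most Gclc. Epcam had 94.4, 110 and 62.9 CPM in Cip2a-/- glands at 2 weeks, against 84.2, 252 and 89.7 CPM untreated. The part of epithelial content in the Gclc values was not tested.

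Txnrd1 and Srxn1 belong to the thioredoxin and peroxiredoxin systems. Txnrd1 (chromosome 10, 82833951 to 82897724), which reduces thioredoxin, ranged from 81.7 to 89.7 CPM in Cip2a-/- glands at 2 weeks and from 75.5 to 97.1 CPM untreated, and from 80.3 to 103 CPM in WT glands at 2 weeks and from 79.5 to 80.6 CPM untreated. Its log2 fold change over both genotypes was 0.07 ± 0.10 (95% interval -0.15 to 0.29), between 0.005 and 0.12 with 1 library left out at a time. Srxn1 (chromosome 2, 152105524 to 152111376), which repairs over-oxidised peroxiredoxins, had a log2 fold change of 0.12 ± 0.14 (95% interval -0.19 to 0.42), or 0.06 without WT untreated library 2. Txnrd1 was the steadiest member: its highest library was 1.43 times its lowest, and its SD over libraries was at percentile 1.91 of all genes tested.

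Among the glutathione transferases, Gstm1 (chromosome 3, 108012250 to 108017973) had opposite fold changes in the genotypes at 2 weeks. It had 304, 278 and 368 CPM in Cip2a-/- glands at 2 weeks, against 214, 171 and 243 CPM untreated, and 228, 263 and 290 CPM in WT glands at 2 weeks, against 456, 310 and 336 CPM untreated. Neither pair of groups overlapped, with the treated libraries above the untreated ones in Cip2a-/- glands and below them in WT glands. The log2 fold changes were 0.60 ± 0.40 in Cip2a-/- glands and -0.50 ± 0.40 in WT glands (-0.32 without WT untreated library 1), and the interaction was 1.09 ± 0.56 (95% interval -0.11 to 2.30; unadjusted p = 0.072, edgeR adjusted p = 0.999). The untreated Cip2a-/- libraries were themselves all below the untreated WT libraries.

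Gstp1 (chromosome 19, 4035411 to 4037912) had 72.2, 71.0 and 71.8 CPM in Cip2a-/- glands at 2 weeks, against 58.9, 62.1 and 68.1 CPM untreated, with no overlap. It had 51.2, 65.5 and 68.4 CPM in WT glands at 2 weeks, against 101, 64.7 and 64.1 CPM untreated, with overlap. The log2 fold changes were 0.19 ± 0.25 in Cip2a-/- glands and -0.31 ± 0.25 in WT glands, the second being -0.08 without WT untreated library 1. Gsta4 (chromosome 9, 78191966 to 78209349), which conjugates the lipid peroxidation product 4-hydroxynonenal, ranged from 26.3 to 31.3 CPM in Cip2a-/- glands at 2 weeks and from 30.9 to 46.1 CPM untreated. It ranged from 29.9 to 43.3 CPM in WT glands at 2 weeks and from 32.2 to 53.4 CPM untreated, and its log2 fold change over both genotypes was -0.29 ± 0.23 (95% interval -0.78 to 0.20), or -0.16 without WT untreated library 1.

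Within Cip2a-/- glands, 2 of 10 members did not overlap between 2 weeks and untreated, Gstm1 and Gstp1, against 12.4% of all genes, and 0.0129% of all genes were called. Within WT glands, 2 of 10 did not overlap, Gclc and Gstm1, against 25.8% of all genes, and 0% were called. Both shares of members are near the shares of all genes.

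**Figure D2:**
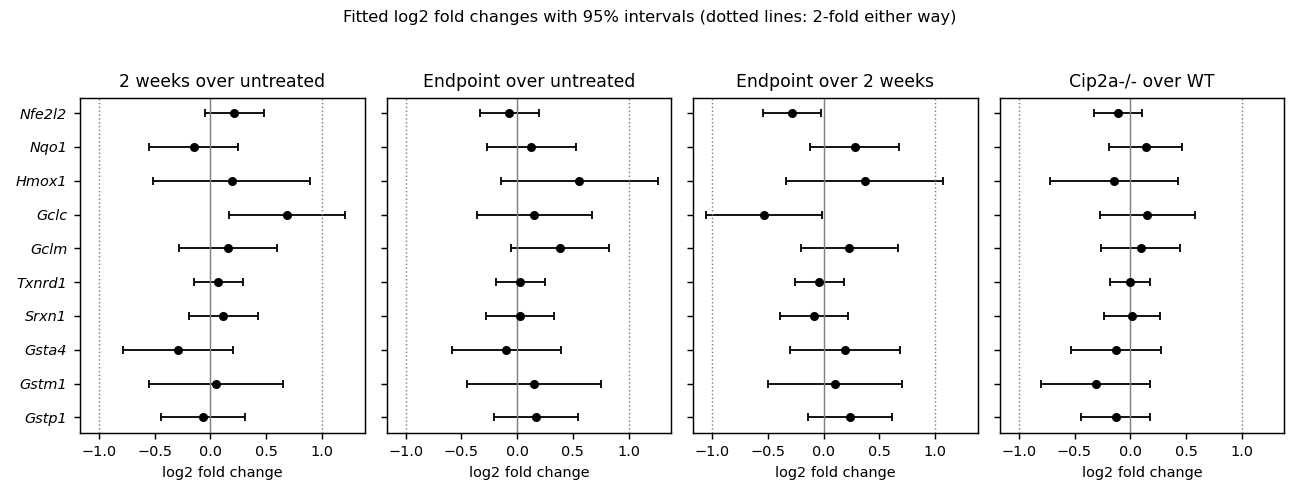
Log2 fold changes (x axis) of the 10 members (y axis) with 95% intervals for 2 weeks over untreated, endpoint over untreated, endpoint over 2 weeks (each averaged over the genotypes) and Cip2a-/- over WT (averaged over the conditions); dotted lines mark 2-fold either way. Every interval of Cip2a-/- over WT lies inside the dotted lines, while Gclc at 2 weeks over untreated reaches 1.21.

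At the endpoint, the comparison with untreated glands over both genotypes called 0 of 10 members and 0.252% of all genes, and 0 of 10 members were separate between the 2 sets of 6 libraries, against 1.5% of all genes. The median log2 fold change was 0.14 for the members and 0.02 for all genes. For 9 of 10 members, all but Hmox1, the 95% interval lay within 2-fold either way. These comparisons share the untreated libraries with those at 2 weeks.

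Nqo1 (chromosome 8, 107388225 to 107403205), a quinone reductase widely used as a readout of Nrf2, had opposite fold changes in the genotypes. It had 20.7, 14.6 and 18.7 CPM in Cip2a-/- glands at the endpoint, against 10.9, 11.3 and 9.21 CPM in untreated Cip2a-/- glands, with no overlap. In WT glands it had 7.79, 14.2 and 7.46 CPM at the endpoint, against 12.3, 17.4 and 12.7 CPM untreated, where library 2 at the endpoint lay among the untreated ones. The log2 fold change was 0.78 ± 0.27 in Cip2a-/- glands (95% interval 0.21 to 1.34; unadjusted p = 0.0108, edgeR adjusted p = 0.285) and -0.52 ± 0.26 in WT glands (95% interval -1.09 to 0.04; edgeR adjusted p = 0.448). The WT value was -0.89 without WT endpoint library 2 (edgeR adjusted p = 0.0947) and -0.35 without WT untreated library 2. The interaction was 1.30 ± 0.37 (95% interval 0.50 to 2.10; unadjusted p = 0.00363, edgeR adjusted p = 0.490). At 2 weeks Nqo1 had 11.9, 10.4 and 10.4 CPM in Cip2a-/- glands and 14.0, 9.95 and 9.17 CPM in WT glands, and these overlapped.

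Between the genotypes at the endpoint, every Cip2a-/- library had more Nqo1 than every WT library, though the lowest Cip2a-/- library (14.6 CPM) was close to the highest WT library (14.2 CPM). The log2 fold change of Cip2a-/- over WT was 0.87 ± 0.27 (95% interval 0.30 to 1.44; unadjusted p = 0.00541, edgeR adjusted p = 0.458). Without WT endpoint library 2 it was 1.24 with an edgeR adjusted p of 0.0534, the lowest of any member in any setting. The luminal markers moved with Nqo1 here only in part. They summed to 3403, 1401 and 3404 CPM in Cip2a-/- glands and 48.0, 3136 and 668 CPM in WT glands at the endpoint. In each genotype the library or libraries richest in luminal marker also had the most Nqo1. At 2 weeks, by contrast, the WT library with the most luminal marker (3156 CPM) had the least Nqo1 (9.17 CPM). At the endpoint, the WT libraries with 48.0 and 668 CPM of luminal marker had similar Nqo1 (7.79 and 7.46 CPM). Likewise, the Cip2a-/- library with 1401 CPM and the WT library with 3136 CPM had similar Nqo1 (14.6 and 14.2 CPM). The part of epithelial content in the Nqo1 values was not tested.

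Gclc at the endpoint had 51.5, 126 and 116 CPM in Cip2a-/- glands, against 34.5, 62.6 and 54.2 CPM in WT glands, and the groups overlapped because of 1 low Cip2a-/- library. The log2 fold change of Cip2a-/- over WT was 0.96 ± 0.35 (95% interval 0.22 to 1.70; unadjusted p = 0.0148, edgeR adjusted p = 0.458). The low Cip2a-/- library, library 1, had 3403 CPM of luminal marker, as much as library 3 with its 116 CPM of Gclc.

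Hmox1 (chromosome 8, 75093618 to 75100593), which degrades haem and is strongly expressed by macrophages that clear red cells, had a highest library 5.09 times its lowest, the largest such ratio of the 10 members, set by WT endpoint library 3. By SD of log2 CPM over the 18 libraries Gclc varied more (0.59, against 0.56 for Hmox1). At 2 weeks Hmox1 had 37.6, 60.2 and 77.7 CPM in Cip2a-/- glands and 43.4, 47.4 and 46.8 CPM in WT glands, and its interval for 2 weeks over untreated was the widest of the 10. It had 48.0, 41.3 and 85.5 CPM in Cip2a-/- glands at the endpoint, against 29.4, 32.5 and 57.1 CPM untreated. In WT glands it had 32.4, 48.4 and 150 CPM at the endpoint, against 56.9, 44.6 and 54.2 CPM untreated. The groups overlapped in both genotypes. Over both genotypes the log2 fold change was 0.56 ± 0.33 (95% interval -0.15 to 1.27; edgeR adjusted p = 0.420), and it was 0.09 without WT endpoint library 3.

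That library had 569 CPM of summed macrophage markers (8 of 8 detected) and the highest Cd68 of all 18 libraries, 105 CPM. The macrophage markers summed to 411, 136 and 407 CPM in Cip2a-/- glands and 382, 188 and 569 CPM in WT glands at the endpoint. Cip2a-/- untreated library 3 had the most macrophage marker of all 18 libraries (705.5 CPM) and the most Hmox1 of its group (57.1 CPM). Cip2a-/- endpoint libraries 1 and 3 had similar macrophage sums but 48.0 and 85.5 CPM of Hmox1. As a sum, markers of red pulp and iron macrophages (Spic, Vcam1, Slc40a1 and Cd5l) followed Hmox1 in only 1 genotype at the endpoint. They summed to 37.45, 37.18 and 94.4 CPM in Cip2a-/- glands, highest in library 3. In WT glands they summed to 91.9, 62.5 and 45.6 CPM, lowest in library 3. The part of macrophage content in the Hmox1 values was not tested.

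WT endpoint library 3 was also the highest of all 18 libraries for Gsta4 (56.2 CPM), Gstm1 (700.0 CPM) and Gstp1 (121 CPM). Gstm1 in the other WT endpoint libraries was 196 and 171 CPM, and in Cip2a-/- endpoint glands 256, 281 and 268 CPM. The same library had 24620 CPM of summed white adipocyte markers, against 9436 and 16430 CPM in the other WT endpoint libraries. The highest adipocyte sum, 31520 CPM, was in Cip2a-/- endpoint library 2, where Gstm1 was 281 CPM.

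Gclm had 27.3, 25.9 and 50.6 CPM in Cip2a-/- endpoint glands, against 25.5, 32.5 and 19.8 CPM untreated, and 22.6, 40.4 and 28.8 CPM in WT endpoint glands, against 20.8, 20.04 and 30.8 CPM untreated. The log2 fold change over both genotypes was 0.39 ± 0.21 (95% interval -0.05 to 0.82; edgeR adjusted p = 0.359), or 0.20 without Cip2a-/- endpoint library 3. That library was the highest of all for Gclm and the lowest of all for Nfe2l2 (56.6 CPM), Txnrd1 (72.0 CPM) and Srxn1 (28.1 CPM), so members of the group did not move together in it.

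Within Cip2a-/- glands, 2 of 10 members did not overlap between the endpoint and untreated, Nqo1 and Gstm1, against 17.6% of all genes, with 0% of all genes called. Within WT glands, 0 of 10 did not overlap, against 16.3% of all genes, with 0.0323% called.

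**Figure D3:**
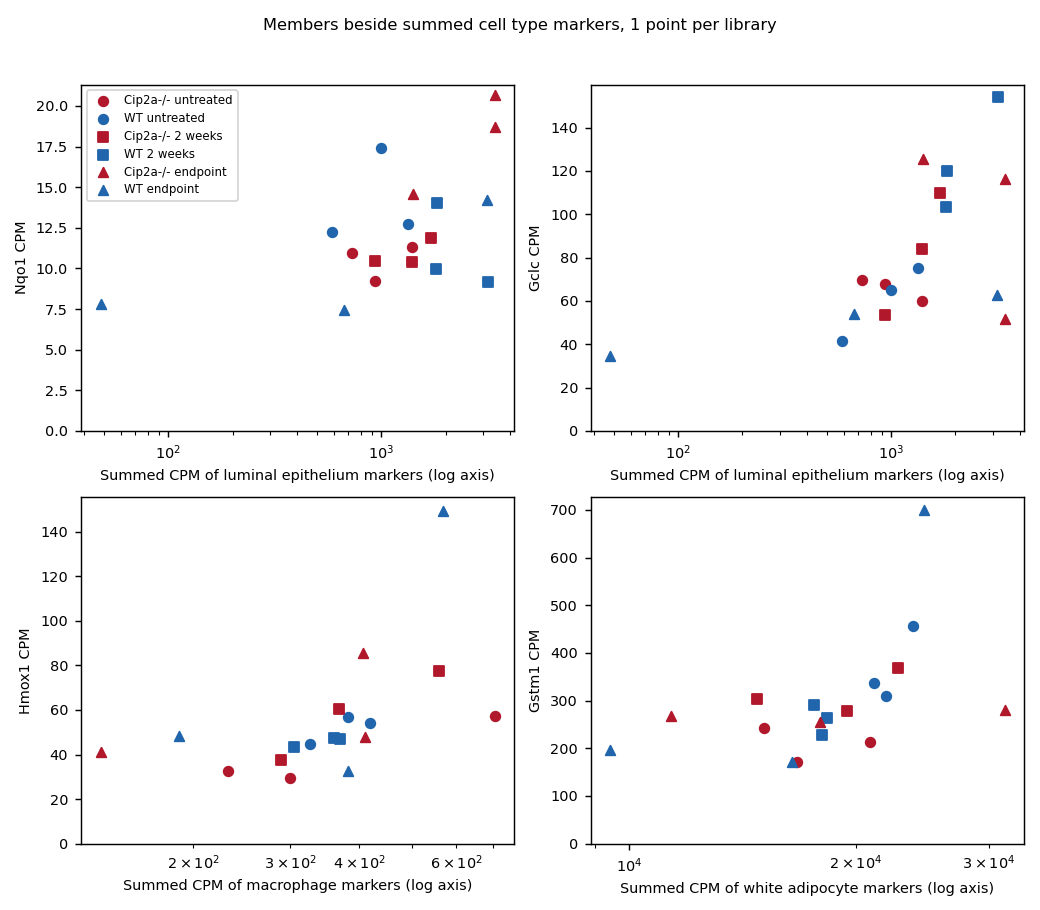
Each point is a library: Nqo1 and Gclc CPM (y axes) beside the summed luminal markers, Hmox1 beside the summed macrophage markers and Gstm1 beside the summed white adipocyte markers (x axes, CPM, log axes); colours give genotype and shapes give condition. WT endpoint library 3 is the highest point for Hmox1 (150 CPM) and Gstm1 (700.0 CPM), and WT endpoint library 1 lies far left with 48.0 CPM of luminal marker.

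Between the treated conditions, the endpoint against 2 weeks over both genotypes called 13.4% of all genes but 0 of 10 members, and 0 of 10 members were separate, against 6.16% of all genes. An unadjusted p under 0.05 was reached by 2 of 10 members, both lower at the endpoint, and by 30.1% of all genes. Nfe2l2 had 80.7, 89.2 and 56.6 CPM in Cip2a-/- endpoint glands and 65.0, 87.7 and 89.2 CPM in WT endpoint glands. All 6 lay below every 2-week library other than Cip2a-/- library 1. Its log2 fold change was -0.28 ± 0.12 (95% interval -0.55 to -0.02; edgeR adjusted p = 0.135). For Gclc it was -0.54 ± 0.24 (95% interval -1.05 to -0.02; edgeR adjusted p = 0.153).

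Loss of Cip2a, averaged over the 3 conditions, gave log2 fold changes between -0.31 for Gstm1 and 0.15 for Gclc. The Gstm1 value was 0.005 without WT endpoint library 3, and the Gclc value lay between 0.05 and 0.24 with 1 library left out. The comparison called 0 of 10 members and 0.00646% of all genes, and all 10 of the 95% intervals lay within 2-fold either way. In untreated glands, 0 of 10 members and 0% of all genes were called, and 3 of 10 members were lower without overlap in Cip2a-/- glands, Nfe2l2, Nqo1 and Gstm1, against 12.4% of all genes in either direction. Gstm1 had 214, 171 and 243 CPM in untreated Cip2a-/- glands, against 456, 310 and 336 CPM in untreated WT glands. Its log2 fold change was -0.81 ± 0.40 (95% interval -1.67 to 0.04; unadjusted p = 0.0611, edgeR adjusted p = 1). The white adipocyte sums were also lower: 20850, 16680 and 15080 CPM in untreated Cip2a-/- glands, against 23820, 21930 and 21160 CPM in untreated WT glands. Among untreated Cip2a-/- libraries, however, library 3 had the lowest sum and the most Gstm1. Among untreated WT libraries, library 1 had the most of both. The part of adipocyte content was not tested.

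At 2 weeks, 0 of 10 members and 0.00646% of all genes were called between the genotypes, and Gstp1 alone did not overlap, higher in Cip2a-/- glands, against 13.2% of all genes. The Gclc log2 fold change there was -0.61 ± 0.34 (95% interval -1.34 to 0.12), or -0.39 without Cip2a-/- 2 weeks library 3. At the endpoint, 0 of 10 members and 0.00646% of all genes were called, and 1 of 10 did not overlap, Nqo1, against 5.28% of all genes. For the interactions of genotype with treatment, 0 of 10 members and 0% of all genes were called at each time.

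The genes with the most similar pattern were found by the root mean square difference of centred log2 CPM over the 18 libraries, among 11982 genes with a mean of at least 5 CPM. Srxn1 was followed most closely, by 2410091C18Rik and Psmd2 (0.09 log2 units each), then Nfe2l2 by Arf4 (0.10) and Txnrd1 by Ube2d2 and Cstf3 (0.10 each). Gstp1 was followed by Tomm6 and Psmc5 (0.11 each), Gclm by Limk2 (0.19) and Gstm1 by Cyb5 (0.24). The nearest genes to Nqo1 (Zfp949, 0.26), Gclc (Cdk19, 0.28), Gsta4 (1300018J18Rik, 0.28) and Hmox1 (Ninj1 and Cmtm3, 0.31 each) were further off. Members were left out of the search.

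The wider pathway was read from lists of Nrf2 control genes, other Nrf2 targets, glutathione supply and peroxidases, other glutathione transferases and targets of the aryl hydrocarbon receptor, with 124 genes tested. At 2 weeks over both genotypes 1 of 124 was called, Ephx1, which hydrolyses epoxides and takes part in the activation of DMBA. Ephx1 rose to 344, 407 and 295 CPM in Cip2a-/- glands at 2 weeks, against 100, 97.8 and 111 CPM untreated, and the log2 fold change in Cip2a-/- glands was 1.76 ± 0.24 (edgeR adjusted p = 0.0369). This call was lost without any 1 of the 6 libraries compared, where the log2 fold change lay between 1.63 and 1.86 and the edgeR adjusted p between 0.0652 and 0.357. Ephx1 had 174, 212 and 369 CPM in WT glands at 2 weeks, against 135, 148 and 182 CPM untreated, and the log2 fold change over both genotypes was 1.23 ± 0.17 (edgeR adjusted p = 0.0216). This second call was lost in 7 of the 12 fits that left out 1 library (edgeR adjusted p up to 0.108) and in the fit of only the groups compared (0.0646).

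Ephx1 fell at the endpoint relative to 2 weeks, to 163, 174 and 169 CPM in Cip2a-/- glands and 82.8, 107 and 103 CPM in WT glands, with a log2 fold change of -1.21 ± 0.17 (edgeR adjusted p = 0.00257). The 6 aryl hydrocarbon receptor genes tested gave 0 calls by edgeR at either time against untreated over both genotypes, and 0 at an unadjusted p under 0.05. Cyp1a1, which oxidises DMBA, had 6.10, 5.97 and 1.53 CPM in Cip2a-/- glands at 2 weeks, against 3.94, 3.79 and 0.695 CPM untreated, and 3.76, 8.32 and 15.5 CPM in WT glands at 2 weeks, against 13.3, 0.447 and 2.10 CPM untreated. The groups overlapped in both genotypes.

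At the endpoint against untreated, 1 of 124 was called, Abcc1, an exporter of glutathione conjugates. It fell to 52.2, 52.1 and 57.9 CPM in Cip2a-/- glands at the endpoint, against 96.3, 85.1 and 90.9 CPM untreated, and to 61.3, 55.6 and 67.3 CPM in WT glands at the endpoint, against 85.5, 71.9 and 85.3 CPM untreated. Every endpoint library was below every untreated library of either genotype, with a log2 fold change of -0.57 ± 0.08 (edgeR adjusted p = 0.0183). This call was lost without WT untreated library 3 (-0.55, edgeR adjusted p = 0.0837), without Cip2a-/- untreated library 1 (-0.55, edgeR adjusted p = 0.0744), and in the fit of only the groups compared (-0.58, edgeR adjusted p = 0.129), which called 0 of 124. DESeq2 called 8 of 124 in this comparison and limma voom 1. The DESeq2 calls were Abcc1, which fell, and Aldh3a1, Glrx5, Gpx3, Gsr, Maff, Mafk and Slc3a2, which rose. By edgeR, Gpx3 had a log2 fold change of 2.47 ± 0.53 and was not called (edgeR adjusted p = 0.0715). Every endpoint library had more Gpx3 than every untreated library.

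The endpoint against 2 weeks called 13 of 124, of which 7 rose and 6 fell, close to the 13.4% of all genes. DESeq2 called 20 and limma voom 11, and a fit of the 12 libraries compared alone called 3, Maff, Ephx1 and Abcc1. Of the 16 Nrf2 control genes, 1 rose and 2 fell. Maff, a small Maf partner of Nrf2, rose to 9.93, 26.1 and 34.7 CPM in Cip2a-/- endpoint glands, against 5.96, 7.54 and 8.07 CPM at 2 weeks, and to 11.8, 29.1 and 19.3 CPM in WT endpoint glands, against 9.20, 9.30 and 6.44 CPM at 2 weeks. Its log2 fold change was 1.49 ± 0.28 (edgeR adjusted p = 0.0082). Fbxw11 and Gsk3b, which take part in the Keap1-independent breakdown of Nrf2, fell by 0.56 and 0.49 on the log2 scale (edgeR adjusted p = 0.011 and 0.0443). Keap1 itself had 102, 106 and 88.8 CPM in Cip2a-/- endpoint glands, against 95.8, 90.4 and 86.1 CPM at 2 weeks, and 108, 94.8 and 125 CPM in WT endpoint glands, against 82.8, 85.3 and 88.0 CPM at 2 weeks. It was not called by edgeR, while DESeq2 called it (log2 fold change 0.25, DESeq2 adjusted p = 0.0201).

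Of the 41 genes of glutathione supply and peroxidases, 4 rose and 0 fell. Gpx3, the secreted glutathione peroxidase, rose to 8484, 1456 and 3118 CPM in Cip2a-/- endpoint glands, against 1823, 608 and 577 CPM at 2 weeks, and to 1421, 5160 and 6375 CPM in WT endpoint glands, against 1102, 812 and 1992 CPM at 2 weeks. The groups overlapped in both genotypes, and the log2 fold change was 1.92 ± 0.52 (edgeR adjusted p = 0.0271). Slc3a2, a subunit of the cystine importer, rose by 0.66 ± 0.17, Gsr, which regenerates reduced glutathione, by 0.51 ± 0.16, and the glutaredoxin Glrx5 by 0.47 ± 0.14 on the log2 scale (edgeR adjusted p = 0.0224, 0.0477 and 0.0441).

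Of the 24 other glutathione transferases, 2 rose, Gsto1 by 0.54 ± 0.13 and Gstt2 by 1.19 ± 0.30 on the log2 scale (edgeR adjusted p = 0.0167 and 0.0223), and 0 fell. Of the 37 other Nrf2 targets, 0 rose and 4 fell: Ephx1, Abcc1 (-0.58 ± 0.08, edgeR adjusted p = 0.00325), the quinone reductase Nqo2 (-0.83 ± 0.21, edgeR adjusted p = 0.0201) and Ugdh, which makes the UDP-glucuronate used in conjugation (-0.57 ± 0.17, edgeR adjusted p = 0.0387). Leaving out 1 library at a time ended the calls of Glrx5 and Gsr 10 times each of 12, Ugdh 9, Gsk3b 8, Gpx3 6, Slc3a2 and Gstt2 3 each and Nqo2 2, and never those of Maff, Fbxw11, Gsto1, Ephx1 and Abcc1. Fibroblast markers (5 of 5 detected) moved with this comparison: every endpoint library had a lower sum than every library at 2 weeks, with a median of 2713 CPM in Cip2a-/- endpoint glands, against 5416 CPM at 2 weeks, and a median of 899 CPM in WT endpoint glands, against 5602 CPM at 2 weeks. The single marker Dpt overlapped, with 247 CPM in Cip2a-/- 2 weeks library 1, against 274, 274 and 287 CPM in Cip2a-/- endpoint glands. The part of fibroblast content was not tested.

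**Figure D4:**
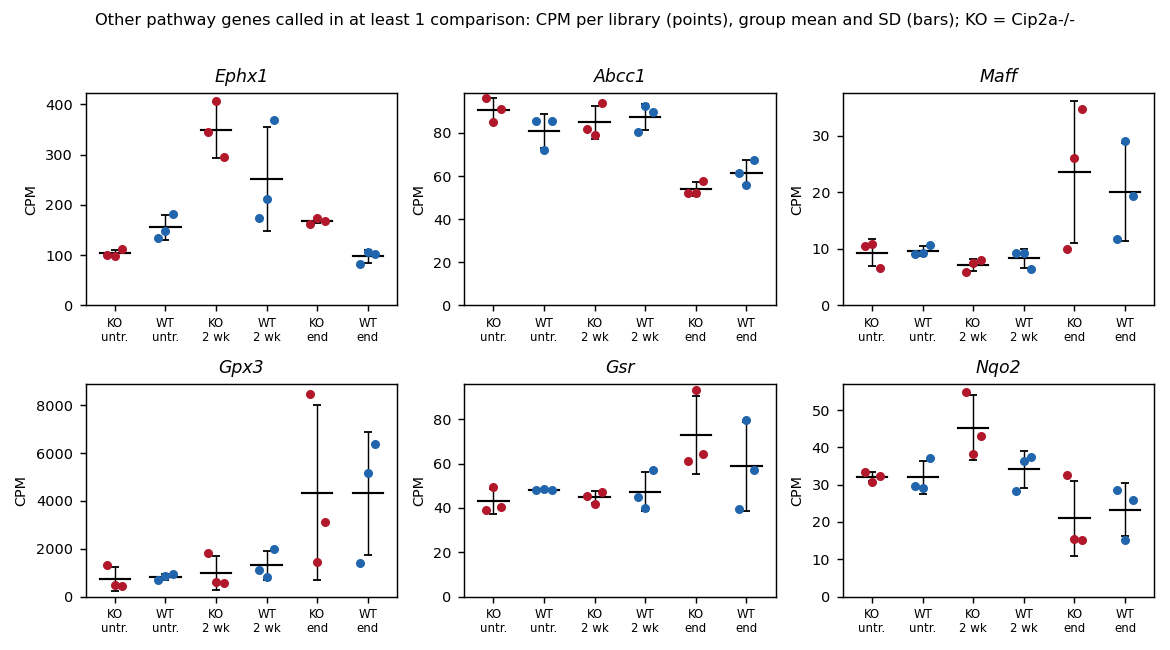
CPM (y axes, each from 0) of 6 pathway genes called in at least 1 comparison, in every library by group (x axes; KO is Cip2a-/-), with the group mean and SD (n = 3). The Ephx1 mean is highest at 2 weeks in both genotypes (libraries of 295 to 407 CPM in Cip2a-/- glands), and every endpoint library of Abcc1 lies below the untreated ones.

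Between the genotypes, 0 of 124 pathway genes were called by edgeR in any of the 3 conditions, on average over them or in either interaction, and limma voom also called 0. In untreated glands 1 of the 37 other Nrf2 targets and 1 of the 41 glutathione supply genes had an unadjusted p under 0.05, and at 2 weeks 0 of 124 had. At the endpoint 6 of 37 other Nrf2 targets, 6 of 41 glutathione supply genes, 2 of 24 glutathione transferases and 1 of 16 control genes had, against 10.7% of all genes. DESeq2 called 1 of 124 at the endpoint, the conjugate exporter Abcc3, higher in Cip2a-/- glands with a log2 fold change of 1.59 (DESeq2 adjusted p = 0.0313). For the interaction at the endpoint DESeq2 called 2, Ephx1 (1.39, DESeq2 adjusted p = 0.0294) and the glutathione peroxidase Gpx1 (0.97, DESeq2 adjusted p = 0.05 after rounding). These 3 were named after their values were seen.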

How the data were processed

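Per the file headers, the authors deposited unnormalized read counts in 18 library columns with gene symbols in rows. RNA was isolated with NucleoSpin and libraries were made with TruSeq Stranded mRNA, per the labels' protocols. The tools named are bcl2fastq 2.17, STAR 2.5.2b and Subread 1.5.1 with build mm10, per the submitters' processing notes. For the annotation, strand setting and treatment of multi-mapped reads, the sources used here give no setting.

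Everything else was computed here. Genes were filtered with filterByExpr (minimum count 10, minimum total 15), scaled by TMM and fitted with 1 term per group over all libraries in edgeR 4.0.16 (R 4.3.3). Contrasts were tested by the quasi-likelihood test with Benjamini-Hochberg adjustment over 15482 genes, and called at an adjusted p under 0.05. Scripts were tested on simulated data. CPM is the count scaled to library size after TMM. Levels per kb use the exon union of the GENCODE vM21 annotation. Alternatives were DESeq2 1.42.0, limma voom 3.58.1, relative log expression scaling within edgeR, other filters and a replicate block. Fits of only the groups compared and fits leaving out each library were also made.

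The members, lists and tests were chosen with earlier results of these data known. Named are all 10 members, pathway genes called or among the 3 smallest p per list in averaged comparisons (some are left out for length), and the 2 genes nearest each member in pattern. Cyp1a1 met this rule at 2 weeks against untreated. Keap1 met it at the endpoint against untreated, and its values against 2 weeks were given for its role. Gene coordinates are GRCm38.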

Additional observations from a re-analysis of the deposited data

Results flagged for a closer look

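Gstm1 was flagged at 2 weeks because its libraries moved in opposite directions in the genotypes: all 3 treated Cip2a-/- libraries lay above all 3 untreated ones, and all 3 treated WT libraries lay below all 3 untreated ones. The interaction of genotype and treatment was 1.09 on the log2 scale, and it did not pass the test (unadjusted p = 0.072, edgeR adjusted p = 0.999). Leaving out 1 library at a time, it lay between 0.93 and 1.22. The direction was not that of Gstm1 alone. Of the 24 other glutathione transferases, 20 had a positive interaction at 2 weeks, as did 49.1% of all genes, and 0 were called. Their median was 0.43, against -0.01 for all genes, and the list was not tested as a set.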

How the results depend on the processing

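The count of members called was 0 in all 210 recomputed values over the 13 comparisons. Of 432 recomputed values of the 26 member fold changes in the text, 1 changed sign: Gstm1, Cip2a-/- against WT on average, lay between -0.43 and 0.005 with 1 library left out, the second without WT endpoint library 3. Over all 130 member fold changes, 22 of 900 alternative values and 116 of 1200 values without 1 library changed sign. Counts of all genes called moved more. With DESeq2 they were 36, 16 and 88 at 2 weeks against untreated (Cip2a-/-, WT, both genotypes), 279, 306 and 845 at the endpoint against untreated, 3256 at the endpoint against 2 weeks, 6, 3, 88 and 3 for Cip2a-/- against WT (untreated, 2 weeks, endpoint, average), and 8 and 36 for the interactions at 2 weeks and the endpoint. With limma voom they were 1 at 2 weeks in Cip2a-/- glands, 2 at 2 weeks and 23 at the endpoint over both genotypes. Fits of only the groups compared gave 0 at 2 weeks in Cip2a-/- glands, 0 at the endpoint in WT glands, 4 at the endpoint against untreated and 605 against 2 weeks over both genotypes, and 0 for Cip2a-/- against WT at 2 weeks and at the endpoint.

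With a replicate block, 20 genes were called at the endpoint in WT glands and 60 over both genotypes. For pairing, the deviations of log2 CPM from the group mean of each gene were correlated between libraries. By these deviations, same-numbered libraries of different groups correlated between -0.47 and 0.66 (median 0.00064), over 0.1 in 17 of 45 pairs. Differently numbered ones correlated between -0.72 and 0.66 (median -0.023), over 0.1 in 29 of 90 pairs. Of the 18 libraries, 10 correlated best with their own number. These values do not settle whether the numbers pair the libraries, and the main fit has no replicate block.

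Leaving out 1 library gave 0 to 1 genes at 2 weeks in Cip2a-/- glands, 1 to 12 over both genotypes, 0 to 9 at the endpoint in Cip2a-/- glands, 0 to 46 in WT glands (0 without WT endpoint library 1, 46 without WT endpoint library 2), 2 to 279 over both (2 without WT untreated library 3, 279 without WT endpoint library 1), 978 to 2610 at the endpoint against 2 weeks (978 without WT 2 weeks library 2), 0 to 1, 0 to 6 and 1 to 2 for Cip2a-/- against WT at 2 weeks, at the endpoint and on average, and 0 to 1 for each interaction. With 3 libraries a group, where an interval given includes 0, effects inside it cannot be told from none. Some member intervals exclude 0, but they are not adjusted for the number of genes tested, and no member was called after adjustment.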
